A study of Arabidopsis thaliana with 6 samples.

Results

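GAMMA-VPE (AT4G32940), which encodes a vacuolar processing enzyme, and the aspartyl protease genes AT1G09750 and AT5G24820 were followed in unopened flower buds of Arabidopsis thaliana over 3 days of drought. Each gene was found by its platform annotation and had 1 probe set, so the 3 genes stand for 3 of the 22746 probe sets tested and 3 of the 13286 genes named by a probe set. They were chosen from these same arrays: GAMMA-VPE for its difference between day 4 and day 5, AT5G24820 for the same step, and AT1G09750 for its differences from day 3 to day 4 and from day 3 to day 5. Their day values are therefore a description and carry no test. The tests below are on other genes of the same families.

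All plants were droughted and all carried anac019-1 (SALK_096295), a T-DNA insertion in ANAC019, which encodes a NAC transcription factor, in the Col-0 background. Water was withheld just after bolting, at 24 days of growth. After about 80 hours, counted as day 3, the soil held near 35% of its water capacity and was kept there by daily watering. The groups were buds taken on day 3, day 4 and day 5, with 2 arrays each, when plants had reached 28, 29 and 30 days from germination. Plant age and days of drought moved together, and buds of wild-type or watered plants were not analysed here. The labels do not say whether replicates came from separate pots, so the spread behind each p-value is that between these samples and may be technical. Values are log2 probe set summaries made by RMA, which equalises the distribution of the arrays. A change is thus relative to the bulk of the array's transcripts, and values are compared within a probe set, not between genes.

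Vacuolar processing enzymes are legumain-type cysteine proteases that cut next to asparagine or aspartate. They mature other vacuolar proteins, including other proteases, and take part in programmed cell death in which the vacuole breaks down. GAMMA-VPE belongs to the vegetative type and is known from senescing and stressed organs. Aspartyl proteases use a pair of catalytic aspartates, as pepsin does, and form a large plant family whose members work in the vacuole, the plastid, the cell wall and the developing anther.

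GAMMA-VPE was higher on each later day, and the larger step came between day 4 and day 5. Its log2 values were 9.37 and 9.49 on day 3, 9.93 and 10.14 on day 4, and 11.42 and 11.81 on day 5. The arrays of the 3 days did not overlap. With 2 arrays a day, how many of all probe sets separate in this way was not counted. A lack of overlap, here and below, is therefore a description. Day means differed by 0.60 ± 0.16 (limma's moderated SE) from day 3 to day 4, or 1.52-fold, and by 1.58 ± 0.16 from day 4 to day 5, or 3.00-fold. Over the whole interval the difference was 2.18 ± 0.16, or 4.55-fold, of which 27.5% fell in the first step. Among all probe sets, 137 had a larger rise from day 3 to day 5, an interval that holds the step for which the gene was chosen. The 2 arrays of day 5 differed by 0.39, more than in 89.9% of probe sets that day, and the gap to day 4 was 1.28 even between the nearest arrays.

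AT1G09750 took the opposite course, and its steps were of nearly equal size. It read 9.82 and 9.85 on day 3, 8.55 and 8.70 on day 4, and 7.51 and 7.35 on day 5. No array of one day reached the values of another, and replicates differed by at most 0.15. The first step was -1.22 ± 0.12 (SE) on the log2 scale, a 2.32-fold lower value, and the second -1.19 ± 0.12, or 2.29-fold lower. From day 3 to day 5 the difference was -2.41 ± 0.12, or 5.31-fold lower, with 50.5% of it in the first step. Over that interval 16 of the 22746 probe sets had a more negative difference, a rank that reflects the choice of the gene for this difference.

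AT5G24820 held its level until day 4 and was low on day 5. Its values were 7.20 and 7.43 on day 3 and 7.33 and 7.20 on day 4, and these arrays overlapped. On day 5 it read 5.98 in replicate 1 and 4.36 in replicate 2. Both lay below every earlier array, and they were 1.62 apart, a wider gap than in 99.9% of probe sets on that day. The day means differed by -0.05 ± 0.43 (SE) in the first step and by -2.09 ± 0.43 in the second, a 4.25-fold lower value. The SE shares 1 estimate of spread over the 3 days, so the day 5 gap widens that of the first step too. The SD was 0.17 on day 3, 0.09 on day 4 and 1.14 on day 5. Day 5 replicate 2 carried much of the fall: the difference between day 5 and day 4 was -1.28 without it and -2.90 without replicate 1. The day 5 values lie towards the lower end of the RMA scale, where changes are compressed.

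**Figure D1:**
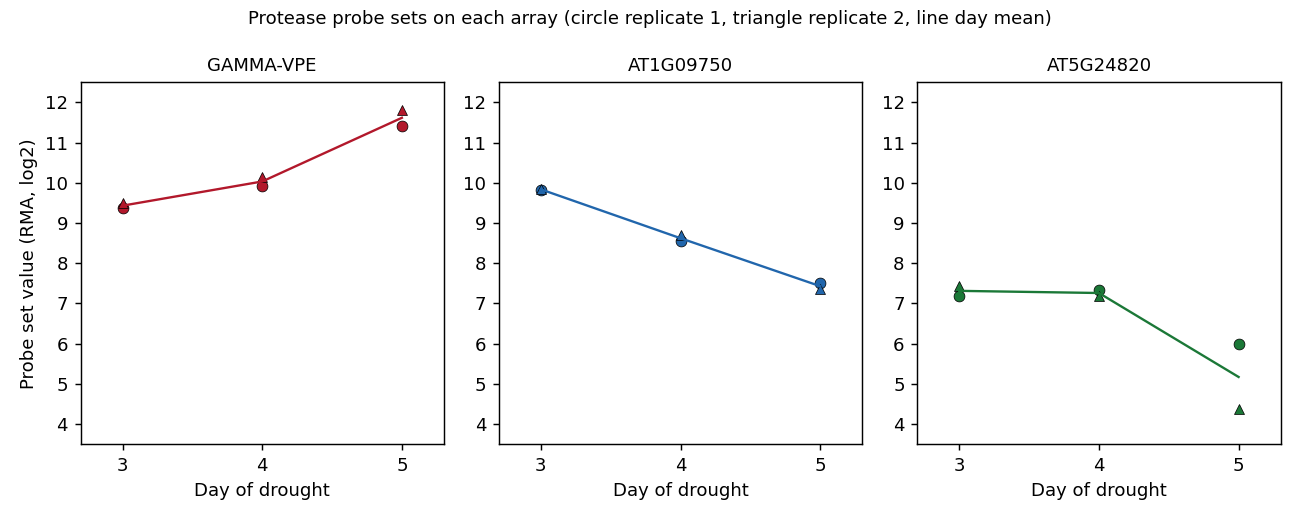
Probe set values (RMA, log2; vertical axis) of the 3 protease genes on days 3, 4 and 5 of drought (horizontal axis); circles are replicate 1, triangles replicate 2 and lines join day means. GAMMA-VPE reads 9.37 to 11.81 with no overlap between days, AT1G09750 runs down from 9.85 to 7.35, and AT5G24820 drops on day 5 alone, where its replicates read 5.98 and 4.36.

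The 3 courses thus differed in timing as well as direction. Over the 6 arrays, which share their days, Pearson's r was -0.96 between GAMMA-VPE and AT1G09750, -0.92 between GAMMA-VPE and AT5G24820, and 0.81 between the aspartyl protease genes. These are descriptions of 3 courses chosen for their changes.

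Among the other legumain-family genes, BETA-VPE, a vacuolar processing enzyme known for maturing seed storage proteins, was the other one to rise. It read 8.03 and 7.47 on day 3, 8.67 and 8.54 on day 4, and 9.43 and 9.45 on day 5, and the days did not overlap. From day 3 to day 5 it rose by 1.69 ± 0.18, or 3.23-fold (limma adjusted p = 0.000632), a call kept under every alternative run. From day 4 to day 5 it rose by 0.84 ± 0.18 (adjusted p = 0.0148), lost without any 1 of the 4 arrays of those days and with spike-in centring, which sets each array by its poly-A control probe sets. Its first step was 0.85 (adjusted p = 0.13). ALPHA-VPE, of the vegetative type, stayed between 3.88 and 4.32 on all arrays, near the lower end of the scale, with a difference of 0.07 ± 0.12 from day 3 to day 5 (adjusted p = 0.727). DELTA-VPE, known from the seed coat, read 7.19 and 6.80 on day 3 and 6.55 and 7.25 on day 5, a difference of -0.09 ± 0.23 (adjusted p = 0.829). AT1G08750, which the list places in the wider legumain family, fell by 0.44 ± 0.11 over the interval (adjusted p = 0.0228), a call lost without either day 3 array, either day 4 array or day 5 replicate 2. From day 3 to day 5, then, 1 of these 4 genes rose, 1 fell and 2 did not pass, where 28.8% of all probe sets passed, 12.9% higher and 15.9% lower. Their median difference was -0.01, against -0.04 over all probe sets, and with spike-in centring 1 was higher and 3 lower, where 70.5% of all probe sets passed.

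**Figure D2:**
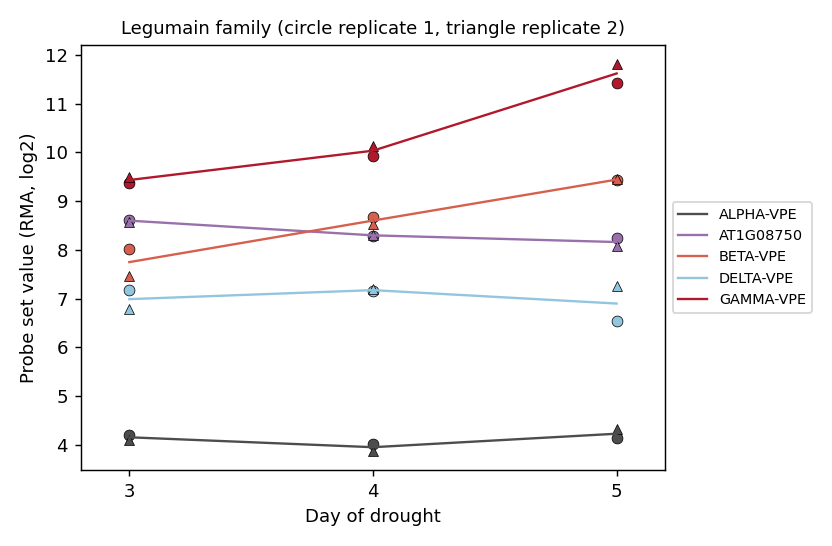
Probe set values (RMA, log2; vertical axis) of the 5 legumain-family genes by day of drought (horizontal axis); circles are replicate 1, triangles replicate 2 and lines join day means. GAMMA-VPE and BETA-VPE climb on each day, from 7.47 to 9.45 for BETA-VPE, while ALPHA-VPE stays between 3.88 and 4.32; heights of different genes are not comparable.

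The aspartyl protease list held 29 measured genes beside the 2 described. From day 3 to day 5, 8 of them rose, 9 fell and 12 did not pass, a share of 58.6% called against 28.8% of all probe sets. With probe sets of a mean under 5 left out, the shares were 68.2% of 22 genes and 40.0%. The list had no common direction: its median difference was 0.04. With spike-in centring, 3 were higher and 15 lower, or 62.1%, below the 70.5% of all probe sets. From day 4 to day 5, 7 rose and 7 fell, or 48.3%, against 22.1% of all probe sets, 10.4% higher and 11.6% lower, and under spike-in centring 2 were higher and 13 lower, or 51.7% against 52.4%. Without day 4 replicate 2, 8 passed, or 27.6% against 6.01%. For 26 of these 29 genes the gene table used here gives no symbol, and their place in the family rests on the list. The list was chosen with earlier results of these data known, so its shares are a description and no independent test.

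The largest fall among them was that of AT1G01300, which read 11.64 and 11.50 on day 3, 10.98 and 10.95 on day 4, and 10.08 and 9.78 on day 5. Like AT1G09750 it was lower on each later day without overlap, and it fell by 1.64 ± 0.14 from day 3 to day 5, or 3.12-fold (limma adjusted p = 0.000251). AT3G20015, AT3G54400 and AT3G61820 followed, with log2 changes of -1.42, -1.38 and -1.34. AT5G07030 resembled AT5G24820 in timing: it read 11.00 and 11.14 on day 3, 11.00 and 11.05 on day 4, and 9.95 and 9.93 on day 5. Its fall from day 4 to day 5 was 1.09 ± 0.11 on the log2 scale (adjusted p = 0.00108), and its day 5 replicates agreed closely. NANA (AT3G12700), a plastid aspartyl protease named here for its known role after its values were seen, fell by 1.07 from day 3 to day 5 (adjusted p = 0.000635). None of these 6 calls over day 3 to day 5 was lost under any alternative run.

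The largest rise was that of AT1G62290, with 5.56 and 5.25 on day 3, 6.06 and 5.96 on day 4, and 7.46 and 7.33 on day 5. It rose by 1.99 ± 0.14 over the interval, or 3.98-fold (limma adjusted p = 0.000127), and 30.5% of that fell in the first step, much as for GAMMA-VPE. AT4G30040 rose by 1.34 ± 0.30, from 4.21 and 3.76 to 5.68 and 4.97, a call lost without day 3 replicate 2 or day 5 replicate 1. AT5G36260 rose by 1.11 ± 0.12 (adjusted p = 0.000758), with 8.41 and 8.26 on day 5 against at most 7.54 before. AT1G05840 and AT4G04460 rose from day 4 to day 5 by 0.79 and 0.65, both lost with spike-in centring and without day 4 replicate 2, and AT4G04460 also without day 5 replicate 2. APA1 (AT1G11910), a vacuolar aspartic proteinase also named after its values were seen, rose by 0.61 ± 0.13 from day 3 to day 5 (adjusted p = 0.00956), lost with spike-in centring and without day 5 replicate 2. UND (UNDEAD), an aspartyl protease gene of the tapetum named likewise, read 6.99 and 6.27 on day 3, 7.53 and 7.69 on day 4, and 7.36 and 6.29 on day 5, with no call (adjusted p = 0.741 from day 3 to day 5).

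**Figure D3:**
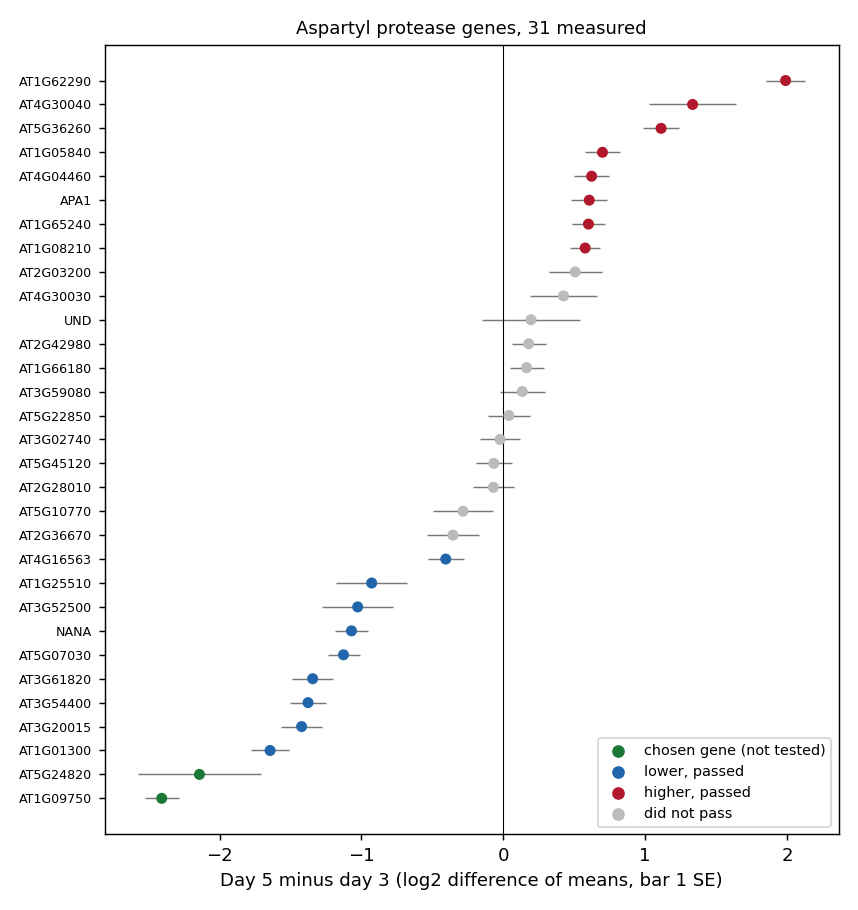
Difference between day 5 and day 3 (log2; horizontal axis, bars 1 moderated SE) of the 31 measured aspartyl protease genes (vertical axis, sorted). The untested AT1G09750 and AT5G24820 in green have the lowest values, -2.41 and -2.14; red genes rose, up to AT1G62290 at 1.99, blue genes fell and grey genes did not pass.

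Papain-like cysteine proteases include the lytic enzymes of the vacuole, several of which are made as inactive precursors. Of 10 measured genes, 5 rose, 1 fell and 4 did not pass from day 3 to day 5, or 60.0% against 28.8% of all probe sets, with a median difference of 0.47 against -0.04. This list too was chosen with earlier results of these data known, so its shares are a description. From day 4 to day 5, 2 rose and none fell, or 20.0% against 22.1%. With spike-in centring, 3 were higher and 2 lower from day 3 to day 5, or 50.0%, below the 70.5% of all probe sets. Over that interval 4 passed (40.0%) without day 3 replicate 1 or day 5 replicate 1, against 23.2% and 23.3% of all probe sets, and 3 (30.0%) without day 5 replicate 2, against 17.1%. AT4G16190 read 11.96 and 12.06 on day 3, 12.24 and 12.11 on day 4, and 13.22 and 13.25 on day 5. It rose by 1.06 ± 0.11 from day 4 to day 5, or 2.08-fold (limma adjusted p = 0.0012), and its day 5 arrays stood clear of all others. AT4G01610 rose by 1.29 ± 0.25 from day 3 to day 5 (adjusted p = 0.00708), with day 3 arrays at 9.72 and 10.58, and lost its call without day 5 replicate 2. AT3G19390 rose by 1.10 over the same interval, lost without day 3 replicate 1 or either day 5 array, and AT1G02300 by 0.93, lost with spike-in centring. AT3G45310 fell by 0.52, lost without day 3 replicate 2 or day 5 replicate 1.

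Of 5 measured protease inhibitor genes, 2 rose and none fell from day 3 to day 5, or 40.0% against 28.8% of all probe sets. With spike-in centring 1 was higher and 1 lower, or 40.0% against 70.5%. AT5G05110, listed as a cystatin gene (cystatins block papain-like proteases), read 7.76 and 7.83 on day 3, 8.27 and 8.08 on day 4, and 9.20 and 9.28 on day 5. The days did not overlap, and it rose by 1.44 ± 0.12, or 2.71-fold (limma adjusted p = 0.000254). AT5G47550 rose by 0.72 ± 0.23 (adjusted p = 0.0468), a call lost with spike-in centring, with probe sets of 1 gene only, and without any 1 array other than day 5 replicate 1. The cystatin gene CYS1 differed by 0.37 (adjusted p = 0.102) and AT1G72290 by 0.53 (adjusted p = 0.111).

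Serine carboxypeptidase-like genes encode enzymes that trim the ends of proteins or act as acyltransferases. Of 29 measured, 3 rose and 7 fell from day 3 to day 5, or 34.5%, near the 28.8% of all probe sets, and 6 passed without day 5 replicate 2, or 20.7% against 17.1%. The median difference was -0.0031, against -0.04 over all probe sets. With spike-in centring 1 was higher and 18 lower, or 65.5% against 70.5%. SCPL45 read 9.43 and 9.27 on day 3, 8.81 and 8.82 on day 4, and 8.25 and 8.08 on day 5, a fall of 1.18 ± 0.12 (limma adjusted p = 0.000548). SCPL34, scpl50 and scpl25 fell by 1.17, 1.15 and 0.96 on the log2 scale. The rises were those of scpl33 (1.00), SCPL49 (0.51) and scpl41 (0.47). SCPL49 and scpl41 were lost with spike-in centring and without several single arrays. Between day 4 and day 5, 3 rose (scpl31, scpl33 and scpl41) and 3 fell (scpl50, scpl29 and SCPL45), or 20.7% against 22.1% of all probe sets, and 0 passed once day 4 replicate 2 was left out, or 1 with day 4 replicate 1 or day 5 replicate 2 left out. Of 11 subtilases, serine proteases mostly of the cell wall, SBT4.13 rose by 0.77 and SBT1.3 and SBTI1.1 fell by 0.72 and 0.69 from day 3 to day 5. These are 27.3% of the list, near the 28.8% of all probe sets, and from day 4 to day 5 the share was 9.09% against 22.1%. With spike-in centring 0 were higher and 7 lower from day 3 to day 5, or 63.6% against 70.5%. SBT4.13 lost its call with spike-in centring and without any 1 array of day 3 or day 5, and SBTI1.1 without day 3 replicate 1 or day 5 replicate 2. Of 2 tonoplast proton pump genes measured, VHA-A3 fell by 0.43, lost with cyclic loess and without any 1 array. That is 50.0% of the list against 28.8% of all probe sets. With spike-in centring 2 were lower, or 100% against 70.5%.

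Taking the 90 measured genes of these lists together, without the 3 described, 20 rose and 21 fell from day 3 to day 5, or 45.6% against 28.8% of all probe sets, and with spike-in centring 9 were higher and 48 lower, or 63.3% against 70.5%. From day 4 to day 5, 14 rose and 11 fell, or 27.8% against 22.1%, and with spike-in centring 4 were higher and 40 lower, or 48.9% against 52.4%. Leaving out day 4 replicate 1 made that count 15, or 16.7% against 9.23% of all probe sets. Leaving out day 4 replicate 2 made it 10, or 11.1% against 6.01%, and leaving out day 5 replicate 2 made it 13, or 14.4% against 9.43%. From day 3 to day 4, limma called none of the 90, where 0.501% of all probe sets passed. At an unadjusted p under 0.05 there were 20. The share of all probe sets at that looser threshold was not counted, so the 20 cannot be set against the array. The 90 are the measured part of 171 listed genes. The lists were chosen with earlier results of these data known, so the shares above are a description. Metacaspases and vacuolar sorting receptors had no named probe set and were not analysed here.

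The genes whose course lay nearest to each described gene were sought among all named genes, by the root mean square difference of values centred over the 6 arrays. For GAMMA-VPE these were AT5G06370 (0.15), AT2G41640 (0.16), AT3G16120 (0.17) and AT4G14930 (0.17). AT5G06370 read 8.41 and 8.78 on day 3 and 10.62 and 10.80 on day 5, and both day 4 arrays lay between them. For AT1G09750 they were AT1G49750 (0.15), AT5G62730 (0.19), AT1G56680 (0.20) and AT3G48490 (0.22). AT1G49750 read 9.34 and 9.32 on day 3, 8.20 and 8.19 on day 4, and 7.31 and 7.21 on day 5, so it too was lower on each later day without overlap. With 3 days such likeness is common: of 13285 other genes, 508 correlated with GAMMA-VPE at r over 0.95 across the 6 arrays, 402 with AT1G09750 and 405 with AT5G24820.

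The course of AT5G24820 was matched most closely by AT3G07450 (root mean square difference 0.05), then by AT4G29980 (0.23), SHT (0.27) and AT4G10270 (0.29). AT3G07450 read 10.69 and 10.76 on day 3, 10.73 and 10.60 on day 4, and 9.41 and 7.78 on day 5, with the same wide gap between the day 5 arrays. AT4G29980 read 7.72 and 5.93 on day 5. SHT (AT2G19070) makes hydroxycinnamoyl spermidines of the pollen coat and is expressed in the tapetum, the nurse tissue of pollen. It went from 10.63 and 10.59 on day 4 to 9.24 and 8.32 on day 5.

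Of 11 tapetum marker genes listed, 3 were measured, and all 3 read lower in day 5 replicate 2 than in replicate 1. AMS, a regulator of tapetum development, read 8.80 and 8.18 on those arrays, and AT5G07230, also on that list, 11.41 and 10.77. Neither passed from day 4 to day 5 (adjusted p = 0.0704 and 0.516). The mean of the 3 genes was 10.26 and 10.41 on day 4, and 9.81 and 9.09 on day 5. SHT is on that list too and was picked above for its nearness to AT5G24820, so its fall is no separate reading. From day 4 to day 5 SHT differed by -1.83, against -0.60 for AMS and -0.22 for AT5G07230. The lower mean thus rests largely on SHT. All 6 measured genes of the pollen list, of 11, read higher in day 5 replicate 2 than in replicate 1, with list means of 7.72 and 7.30. From day 4 to day 5, 5 of these 6 rose and none fell, where 10.4% of all probe sets rose, and all 6 differences stayed positive with spike-in centring. The part that these markers have in the values of AT5G24820 was not tested. In whole buds, fewer cells of a type and less RNA per cell cannot be told apart.

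**Figure D4:**
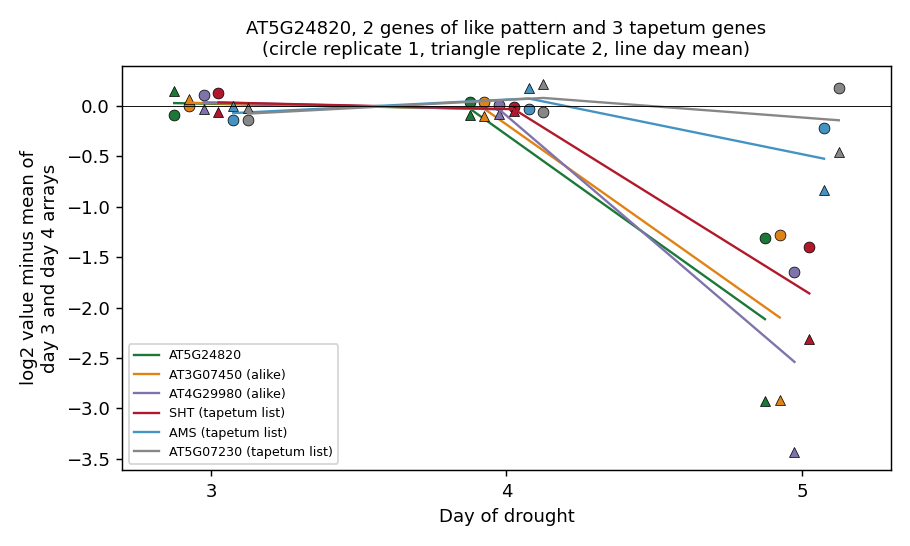
Log2 values relative to each gene's mean over the day 3 and day 4 arrays (vertical axis) by day of drought (horizontal axis, points offset for clarity); circles are replicate 1, triangles replicate 2 and lines join day means. AT5G24820, AT3G07450, AT4G29980 and SHT drop together on day 5 and further in replicate 2, where AT5G24820 reads 4.36 and SHT 8.32, while AMS and AT5G07230 stay nearer to 0.

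Of the 10 genes of the senescence list, which GAMMA-VPE is often read beside, only WRKY53 and SAG101 were measured. They stayed between 3.57 and 4.42 on every array, near the lower end of the scale, and neither passed from day 3 to day 5 (limma adjusted p = 0.535 and 0.768). The 1 measured gene of the 9 on the seed storage list, AT1G03890, read 3.29 to 3.64. The floral identity and tracheary lists had no named probe set here. The tissue is as given in the sample record, and the tapetum and pollen genes above do not test that the buds were unopened. ANAC019 itself was not analysed here. The poly-A control probe sets averaged 6.38 to 6.64 on days 3 and 4 and 6.87 to 7.03 on day 5. Centring on them puts the median difference of all probe sets at -0.44 from day 4 to day 5 and at -0.55 from day 3 to day 5. Under that centring GAMMA-VPE was higher by 1.68 from day 3 to day 5, and AT1G09750 differed by -2.91.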

How the data were processed

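Total RNA of unopened buds was hybridised to 6 single-colour Affymetrix arrays. The deposited values are log2 probe set summaries; the submitters' processing notes name RMA and affy, without versions, and which arrays were normalised together is not stated there. Array medians were 6.97 to 7.03; the number of arrays limits the precision. Of 22810 probe sets, 64 controls were left out. Platform annotation named 1 gene for 13513 probe sets, several for 503 and none for 8730; names were updated through RefSeq's TAIR10.1 gene table, which matched 13436. The brightest probe set stood for a gene.

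Differences between days were fitted in R 4.3.3 by limma 3.58.1 (lmFit, eBayes, 6 arrays, 3 group means, 3 residual degrees of freedom and a prior of 4.69), two-sided, with Benjamini-Hochberg adjustment over 22746 probe sets and a threshold of 0.05. The fit was tested on simulated data. The genes described and the lists were chosen with earlier results of these data known. Lists were written by locus, extended by names in the gene table; HDS, matched only through an unrelated synonym, was left out. Genes were named by rule: the 4 largest changes that passed per list, comparison and direction; all legumain and inhibitor genes that passed and up to 2 that did not; for a list with none, the 2 of smallest p; and the 4 nearest courses. Alternatives were a replicate block, a trended and robust prior, a filter at a mean of 5, cyclic loess, centring on array medians or on 24 poly-A spike-in probe sets, probe sets of 1 gene only, a 2-fold requirement and leaving out each array.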

Additional observations from a re-analysis of the deposited data

How the results depend on the processing

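GAMMA-VPE, AT1G09750 and AT5G24820 kept the direction of their differences under cyclic loess, centring on array medians and spike-in centring. This holds for day 4 to day 5 and for day 3 to day 5. Leaving out 1 array could not change that direction, since the arrays of these days did not overlap in any of the 3 genes. The 3 genes were chosen for such differences, so their kept direction is a description. With spike-in centring, GAMMA-VPE differed by 1.19 from day 4 to day 5 and 1.68 from day 3 to day 5, and AT1G09750 by -1.32, -1.59 and -2.91 from day 3 to day 4, day 4 to day 5 and day 3 to day 5; the median difference of all probe sets was -0.11 in the first step under that centring. Of the 90 other genes, 44 passed from day 4 to day 5 under it, 4 higher and 40 lower, or 48.9% against 52.4% of all probe sets, and 57 from day 3 to day 5, 9 higher and 48 lower, or 63.3% against 70.5%. AT1G08210 from day 4 to day 5 and scpl41 from day 3 to day 5 then changed sign, to -0.038 and -0.034, without passing; AT1G08210 is named for that change alone. From day 3 to day 4, 3 genes passed with spike-in centring, or 3.33% against 0.901% of all probe sets. With a trended and robust prior 1 passed, or 1.11% against 0.73%. A replicate block also gave 1, or 1.11% against 0.541%, where the main fit gave none. With a 2-fold requirement 8 of the 90 genes passed from day 4 to day 5 and 18 from day 3 to day 5. In both comparisons this was a larger share than that of all probe sets under the same requirement. Leaving out single arrays gave 10 to 28 genes from day 4 to day 5 and 28 to 35 from day 3 to day 5; where a day is left with 1 array, it is assumed to vary like the others. The share of all probe sets that passed moved with the array left out too. From day 4 to day 5, both this share and the count of the 90 were lowest without day 4 replicate 2. Of 66 calls on single genes, 28 held under every alternative other than the 2-fold requirement. Replicate numbers did not meet the rule for pairing: deviations of same-numbered arrays correlated at 0.0987, 0.145 and 0.376 between the days. With the replicate number as a block, 32 genes passed from day 4 to day 5, or 35.6% against 25.6% of all probe sets. From day 3 to day 5, 43 passed, or 47.8% against 32.2%. The causes of these shifts were not tested. With 2 arrays per day and no detection calls, changes of probe sets near the lower end of the scale are the least certain.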
